A study of Rattus norvegicus with 30 samples.

Results

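The uncoupling proteins Ucp2, Ucp3 and Slc25a14 were followed through rat hearts that were exposed to preconditioning stimuli, to ischaemia or to both. These are 3 of the 4736 genes named on the array, represented by 6 of its 8799 probe sets, a probe set being the group of short probes that reports on one transcript. The 6 probe sets were found by gene symbol alone, every one that carried a member's name was taken, and 5 of them passed the filter on low signals. The 3 genes were chosen by family with results of these same arrays already known, so the p-values below are not independent evidence that the family responded.

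Total RNA from the left ventricle was measured on 30 Affymetrix arrays, 5 biological replicates in each of 6 groups. CTL hearts were the controls, and ISCH hearts underwent ischaemia with no preconditioning. IPC and APC hearts were preconditioned by ischaemia and by an anaesthetic, respectively. IPC_TRI and APC_TRI hearts received the trigger of each preconditioning, which is taken here, as background on such protocols, to be the stimulus without the later test ischaemia that IPC and APC share with ISCH. The labels do not give the strain, age or sex of the rats, the anaesthetic, or the duration of any step. Whole ventricle holds cardiomyocytes with vessel, blood and connective tissue cells, so fewer cells of a type and less RNA per cell cannot be told apart.

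Uncoupling proteins sit in the inner membrane of mitochondria and belong to the carriers of the Slc25 family. The founding member, Ucp1, lets protons return to the matrix without making ATP and so produces heat in brown fat. Ucp2 is found in many tissues including immune cells, Ucp3 mainly in skeletal muscle and heart, and Slc25a14, also called Ucp5 or BMCP1, is best known from brain. These relatives have been linked to the export of metabolites and to limiting superoxide made by the respiratory chain, and in the heart Ucp3 is known as a target of the fatty acid receptor Ppara.

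Ucp3 and Ucp2 are neighbours in the rat genome. In RefSeq's annotation of build GRCr8, Ucp3 lies at chr1:164227910-164240893 and Ucp2 at chr1:164251373-164257742, with 10479 bases and 0 annotated genes between them. Slc25a14 lies on another chromosome, at chrX:132685518-132723705. The RefSeq promoter windows of the 3 genes are shown because 2 of the genes are neighbours; a difference between Ucp2 and Ucp3 was not tested. Each window holds 250 bases before and 50 after the transcript start that RefSeq's table uses, on the plus strand. The windows are chr1:164227660-164227959 for Ucp3, chr1:164251123-164251422 for Ucp2 and chrX:132685359-132685658 for Slc25a14. Capitals mark matches to AGGTCA, the half-site of nuclear receptors such as Ppara, to GGGCGG, the GC box, or to CACGTG, the E-box, on either strand.
Ucp3: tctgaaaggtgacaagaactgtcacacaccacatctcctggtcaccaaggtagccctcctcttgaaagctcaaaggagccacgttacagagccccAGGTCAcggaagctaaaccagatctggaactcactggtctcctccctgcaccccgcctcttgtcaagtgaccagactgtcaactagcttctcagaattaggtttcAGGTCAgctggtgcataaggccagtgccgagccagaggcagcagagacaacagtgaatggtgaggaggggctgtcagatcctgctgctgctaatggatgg
Ucp2: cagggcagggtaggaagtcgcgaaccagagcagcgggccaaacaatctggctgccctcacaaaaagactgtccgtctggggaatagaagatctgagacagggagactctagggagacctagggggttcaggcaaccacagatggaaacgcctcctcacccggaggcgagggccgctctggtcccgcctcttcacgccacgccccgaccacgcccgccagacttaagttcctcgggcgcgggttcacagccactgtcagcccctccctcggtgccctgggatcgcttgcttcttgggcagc
Slc25a14: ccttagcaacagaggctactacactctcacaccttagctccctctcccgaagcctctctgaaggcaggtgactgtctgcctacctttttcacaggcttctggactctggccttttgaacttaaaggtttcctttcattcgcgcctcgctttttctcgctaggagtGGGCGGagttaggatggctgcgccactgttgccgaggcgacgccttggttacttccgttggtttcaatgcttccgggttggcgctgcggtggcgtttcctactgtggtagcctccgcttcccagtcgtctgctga
The Ucp3 window held 2 AGGTCA matches, 155 and 50 bases before the start. AGGTCA occurred in 16.2% of 33469 RefSeq promoter windows of the same length. The Slc25a14 window held 1 GGGCGG match, 85 bases before the start that its window uses, a motif found in 33.1% of windows. The annotated Slc25a14 gene begins at chrX:132685518, inside this window and ahead of that start. The match therefore lies within the annotated gene span. CACGTG, found in 6.42% of all windows, was in none of the 3, and the Ucp2 window held no match to any of the motifs. No matches overlapped. The G and C content was 63.3% for Ucp2, 55.7% for Slc25a14 and 54.0% for Ucp3, against a median of 51.7% over all windows. A match is a run of letters and was not tied to any measurement here.

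Before deposit every array was brought to one trimmed mean, 500.8 to 501.0, while array medians ran from 114.6 to 189.2. Each array's mean correlation with the others of its group was lowest in IPC_TRI, at 0.853 to 0.901, was 0.905 for ISCH replicate 1 and was 0.936 or higher elsewhere. These lower values include IPC_TRI replicate 5 at 0.853. Results of the members that changed without IPC_TRI replicate 5 and ISCH replicate 1 are therefore named below. All 9 ventricular cardiomyocyte markers on the array passed the filter, with summed signals of 210946 to 349827 in CTL, 282865 to 511338 in ISCH, 308012 to 459084 in IPC_TRI and 283387 to 355472 in APC_TRI, the medians of these 3 groups lying above that of CTL. In IPC the sums were 209274 to 308585 and in APC 185296 to 272313. By the limma fit described below, 0 of the 9 were called higher than CTL in ISCH, IPC_TRI or APC_TRI, and 2, 2 and 1 lower. Over all 3155 genes 3.39%, 6.94% and 3.61% were called higher and 4.91%, 8.75% and 4.28% lower. The median log2 changes of the 9 were −0.19, 0.02 and −0.11. The part of the differences in summed signal in the members' results was not tested. The log2 signal ratio of the 3′ to the 5′ beta-actin probe sets, a measure of RNA integrity and of how far copying ran, was −0.31 to 0.31 in CTL, −0.98 to 0.05 in IPC_TRI, −0.70 to −0.01 in APC_TRI, 0.25 to 0.42 in ISCH, −0.12 to 0.49 in IPC and −0.28 to 0.37 in APC. The same ratio for Gapdh lay the other way in the trigger groups, at 0.05 to 0.30 in IPC_TRI and 0.04 to 0.42 in APC_TRI against −0.24 to 0.01 in CTL. The log2 signal of bacterial spike-in probe sets was higher in ISCH, at 12.0 ± 0.61 (SD, n = 5), than in CTL, at 10.8 ± 0.69 (SD, n = 5). Changes below are log2 fold changes ± standard error from limma, with p-values adjusted by the Benjamini-Hochberg method over all 5244 probe sets tested and a call at an adjusted p under 0.05. Signals of different probe sets are not compared as levels, since each probe set has its own brightness. The share of all probe sets whose groups did not overlap was counted for ISCH, IPC_TRI and APC_TRI against CTL only. It was 10.2%, 9.48% and 13.3%, and for other pairs of groups named below it was not counted.

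By AB010743_at, the Ucp2 probe set with the higher mean signal, both trigger groups stood above the control hearts, 1.87-fold for the ischaemic and 1.51-fold for the anaesthetic trigger. Hearts that went on to the test ischaemia did not show that excess: IPC and APC lay near CTL. The second probe set of the gene, AB005143_s_at, did not pass the test in either trigger group and was instead lower in ISCH than in CTL.

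The AB010743_at signals in CTL replicates 1 to 5 were 9632.5, 10733.7, 6541.8, 7709.7 and 8610.0. In IPC_TRI they were 15838.7, 16045.1, 17435.4, 17106.1 and 21601.3. All 5 IPC_TRI arrays lay above every CTL array. In APC_TRI the signals were 15374.4, 17741.4, 12059.9, 7518.1 and 19204.6. Of these, 4 lay above the CTL range, while replicate 4 lay inside it. In ISCH the signals were 9648.9, 6484.2, 10117.3, 7343.2 and 8920.0, in IPC 9242.4, 8049.1, 8762.8, 9225.0 and 9371.5, and in APC 7836.8, 9198.7, 6384.6, 7072.3 and 9149.7. All 3 groups with test ischaemia overlapped CTL, and IPC was the tightest group, with an SD of 544 around a mean of 8930.

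**Figure D1:**
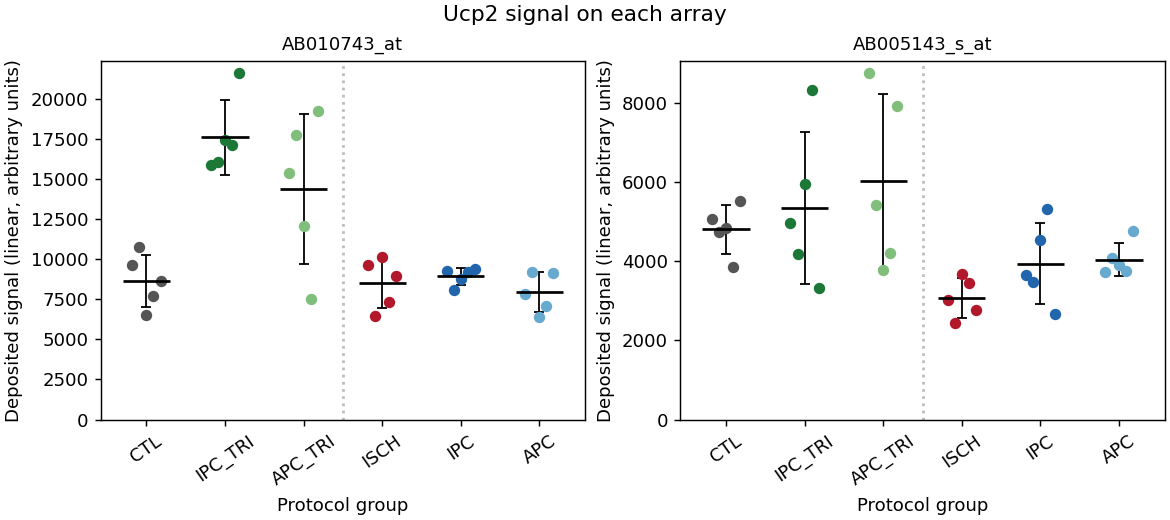
Deposited signal of the Ucp2 probe sets in each array, by group, with the groups without test ischaemia on the left and those with it on the right; points are arrays, black lines are means and bars are SD (n = 5). By AB010743_at the IPC_TRI arrays, at 15838.7 to 21601.3, stand above all CTL arrays and APC_TRI replicate 4, at 7518.1, is the array of its group that lies inside the CTL range; by AB005143_s_at the ISCH arrays, at 2436.8 to 3668.8, lie below all CTL arrays.

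Ucp2 by AB010743_at rose in IPC_TRI against CTL by 0.90 ± 0.19 (adjusted p = 0.00173, limma, n = 5 per group). In APC_TRI against CTL it rose by 0.60 ± 0.19 (adjusted p = 0.0422). The second call depended on single arrays: it was lost without APC_TRI replicate 1, 2 or 5 or CTL replicate 3, 4 or 5, with differences of 0.48 to 0.79 over the 10 arrays left out in turn. It was also lost with the beta-actin ratio as a covariate (0.49, adjusted p = 0.18). The 2 triggers were not shown to differ from each other (0.31, 95% interval −0.08 to 0.69, adjusted p = 0.471). Of the 5 member probe sets tested, 2 were called in IPC_TRI against CTL and 2 in APC_TRI against CTL, 1 higher and 1 lower in each. Over all probe sets 16.6% were called in the first and 8.64% in the second comparison. The groups did not overlap for 2 of 5 member probe sets in IPC_TRI against CTL, where 9.48% of all probe sets did not, and for 1 of 5 in APC_TRI against CTL, where 13.3% did not.

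Against their own triggers, the fully preconditioned hearts had less Ucp2 signal. AB010743_at fell by 0.88 in IPC against IPC_TRI (SE 0.19, adjusted p = 0.00125), with all 5 IPC arrays below all IPC_TRI arrays. It fell by 0.79 in APC against APC_TRI (SE 0.19, adjusted p = 0.00324). With the beta-actin ratio as a covariate the difference of IPC from IPC_TRI was −0.68 and was not called (adjusted p = 0.13). Of the 5 member probe sets tested, 2 were called in each of these comparisons, 1 higher and 1 lower, where 23.4% and 17.7% of all probe sets were called. ISCH did not differ from CTL past the threshold (−0.12, 95% interval −0.50 to 0.26, adjusted p = 0.789). The difference between these responses to test ischaemia fell short of the threshold itself, at −0.75 ± 0.26 for IPC (adjusted p = 0.0541) and −0.67 ± 0.26 for APC (adjusted p = 0.113). The IPC value was called with the replicate number as a block (adjusted p = 0.037) and with the values as deposited (adjusted p = 0.015), as well as with 60% of probe sets left out (0.045), with only the groups compared (0.042), and without CTL, ISCH or IPC_TRI replicate 2 or IPC_TRI replicate 3. The APC value was called without APC_TRI replicate 4 (adjusted p = 0.028). As the mean of both Ucp2 probe sets the values were −0.30 for IPC (adjusted p = 0.416) and −0.28 for APC (adjusted p = 0.485), and by AB005143_s_at the sign turned, to 0.16 (adjusted p = 0.763) and 0.11 (adjusted p = 0.835).

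Ordered by mean log2 signal, AB010743_at was at 14.03 in IPC_TRI, 13.72 in APC_TRI, 13.15 in IPC, 13.13 in CTL and 12.93 in APC, with ISCH between the last 2. Among neighbours in this order, only the step of 0.57 from APC_TRI to IPC was larger than the larger of the SDs of its pair of groups, 0.48. Averaged over the 3 pairs of groups, Ucp2 fell with test ischaemia by 0.60 on the log2 scale by AB010743_at (SE 0.11, adjusted p = 9.2e-05). It fell by 0.55 by AB005143_s_at (SE 0.12, adjusted p = 7.16e-04), or by 0.46 with the beta-actin covariate (adjusted p = 0.084). These 2 were the only calls among the 5 member probe sets tested, where 28.6% of all probe sets were called. The pairs that make up the mean differed between the probe sets, AB010743_at by −0.12 and AB005143_s_at by −0.64 in ISCH against CTL.

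The AB005143_s_at signals in CTL were 5064.5, 4738.7, 4836.1, 3849.9 and 5522.9. In ISCH they were 3015.4, 2436.8, 3668.8, 3443.8 and 2769.8. Every ISCH array lay below every CTL array. The fall in ISCH was 0.64 (SE 0.20, adjusted p = 0.0466), and the call did not survive the removal of 8 of the 10 arrays taken singly, all but CTL replicate 4 and ISCH replicate 4. It was also lost with the spike-in signal, which was itself higher in ISCH, as a covariate (−0.37, adjusted p = 0.57) and with the replicate number as a block (adjusted p = 0.057). In ISCH against CTL 2 of 5 member probe sets were called, both lower, where 8.77% of all were called, and the groups did not overlap for 1 of 5, where 10.2% did not overlap.

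In the trigger groups AB005143_s_at was spread widely, at 4955.3, 4169.2, 5948.7, 8312.8 and 3326.6 in IPC_TRI and 8739.2, 5426.5, 3775.0, 4213.2 and 7909.1 in APC_TRI. Both groups ran from below to above the CTL range. The differences from CTL were 0.11 (95% interval −0.31 to 0.53, adjusted p = 0.749) and 0.23 (95% interval −0.18 to 0.65, adjusted p = 0.498). In IPC the signals were 2672.9 to 5319.5 with a median of 3640.0, and in APC 3736.4 to 4748.1 with a median of 3897.3. IPC against IPC_TRI was −0.48 (95% interval −0.90 to −0.06, adjusted p = 0.0871), a difference that was called without IPC_TRI replicate 5 and ISCH replicate 1 together (−0.60, adjusted p = 0.045). APC against APC_TRI was −0.52 ± 0.20 (adjusted p = 0.074), called with the spike-in covariate or without APC_TRI replicate 3. All 5 APC arrays lay above all ISCH arrays, but the difference of 0.35 ± 0.20 was not called (adjusted p = 0.522). The share of all probe sets that separated in this way between APC and ISCH was not counted. Over the 30 arrays the 2 probe sets correlated at r = 0.58, and at 0.33 once group means were removed, as a description. Affymetrix gives the _s_at ending to probe sets that can match more than one transcript, so what AB005143_s_at reports is less certain. With the mean of both probe sets as the value of the gene, Ucp2 was higher in IPC_TRI than in CTL by 0.51 (adjusted p = 0.037), the difference of APC_TRI was 0.41 (adjusted p = 0.12), and the fall with test ischaemia was 0.57 (adjusted p = 2.9e-05).

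Because Ucp2 is also expressed by immune cells, myeloid markers are given beside it. Of 9 on the array 4 passed the filter, and the defining markers Itgam, Csf1r, S100a8 and S100a9 did not. The summed signal of the 9 was 1331 to 1889 in CTL, 1181 to 1884 in ISCH, 1039 to 1529 in IPC and 991 to 1529 in APC. It was 1565 to 2442 in IPC_TRI and 1665 to 2060 in APC_TRI. The trigger groups ran higher than IPC and APC, as Ucp2 did, and the highest sums in both exceeded the highest CTL sum. Of the 4 tested, 0 were called in either trigger group against CTL, while with test ischaemia Cd14, a co-receptor for endotoxin (−1.10 ± 0.10), and Cd53, a leucocyte membrane protein (−0.51 ± 0.15), fell and Lyz2, the macrophage lysozyme (0.45 ± 0.17), rose. Cd14 was also lower in ISCH than in CTL (−0.88 ± 0.17). Over all 3155 genes 14.1% were called higher and 13.6% lower with test ischaemia, as the mean over the 3 pairs. The shares were 6.94% and 8.75% in IPC_TRI, 3.61% and 4.28% in APC_TRI, and 3.39% and 4.91% in ISCH against CTL. The part of myeloid cells in the Ucp2 result was not tested.

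In the trigger groups Slc25a14 moved opposite to Ucp2 by AB010743_at. Its probe set AB011068_at was highest in control hearts and fell 2.96-fold in ISCH, 3.48-fold in IPC_TRI and 3.59-fold in APC_TRI. It was not called against CTL in the hearts that had both trigger and test ischaemia. Test ischaemia thus went with a lower signal in hearts without preconditioning and with a higher signal in hearts with it.

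The AB011068_at signals in CTL were 218.4, 241.6, 322.5, 310.7 and 256.3. In IPC_TRI they were 107.7, 56.8, 104.5, 56.4 and 85.5, and in APC_TRI 39.8, 69.8, 130.7, 55.2 and 60.7. Every array of both trigger groups lay below every CTL array. In ISCH the signals were 24.3, 67.2, 74.6, 231.4 and 115.1, of which replicate 4 lay inside the CTL range and the other arrays below it. In IPC they were 256.4, 183.4, 120.6, 152.6 and 93.3, and in APC 331.3, 160.6, 161.7, 228.9 and 213.6. Both groups overlapped CTL, but in IPC only replicate 1 lay inside the CTL range and the other arrays lay below it. In APC replicates 2, 3 and 5, at 160.6, 161.7 and 213.6, lay below the CTL range. All APC arrays lay above all APC_TRI arrays. Array medians over all probe sets ran from 125.8 to 155.0 in ISCH, 118.5 to 189.2 in IPC_TRI and 126.6 to 140.4 in APC_TRI. In these groups every AB011068_at signal but that of ISCH replicate 4 lay below the median of its own array.

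**Figure D2:**
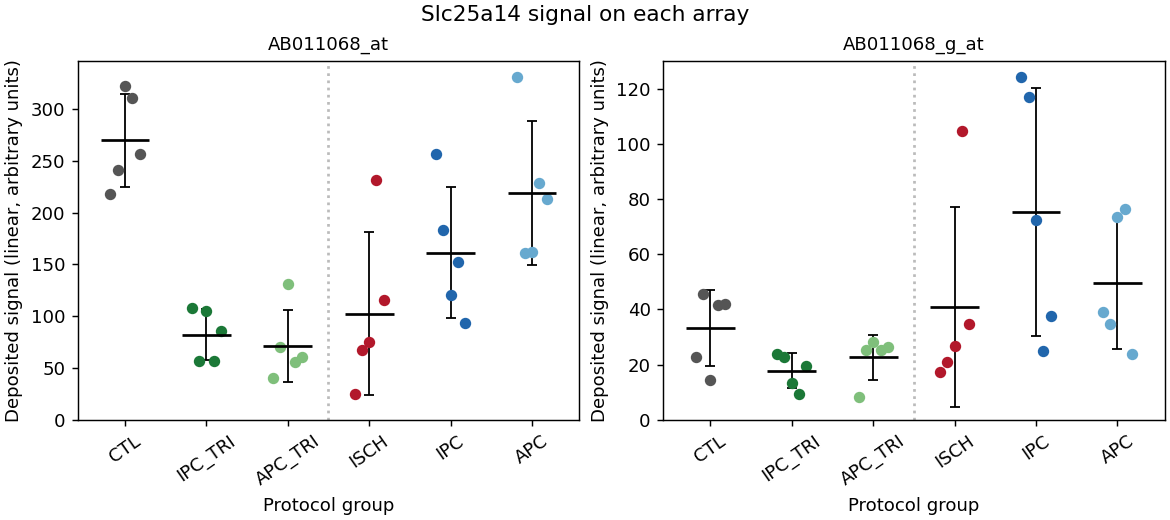
Deposited signal of the Slc25a14 probe sets in each array, by group, laid out as for Ucp2, with points for arrays, black lines for means and bars for SD (n = 5). By AB011068_at the CTL arrays, at 218.4 to 322.5, stand above all arrays of both trigger groups, and APC, at 160.6 to 331.3, overlaps CTL; AB011068_g_at is dim, at 8.3 to 124.3, and did not pass the filter.

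Slc25a14 fell by 1.80 in IPC_TRI against CTL (SE 0.35, adjusted p = 9.99e-04, limma, n = 5 per group). It fell by 1.85 in APC_TRI (SE 0.35, adjusted p = 0.00129). In ISCH it fell by 1.57 (SE 0.35, adjusted p = 0.00345), which was not called with the spike-in signal as a covariate (−1.18, adjusted p = 0.19) or as the mean of both probe sets (−0.79, adjusted p = 0.11). The 2 triggers gave nearly the same value, with a difference of 0.05 and a 95% interval of −0.67 to 0.76. IPC against CTL was −0.69 (95% interval −1.40 to 0.03, adjusted p = 0.477) and APC against CTL −0.26 (95% interval −0.98 to 0.45, adjusted p = 0.931). As the mean of both probe sets, the falls were 1.31 in IPC_TRI (adjusted p = 0.0051) and 1.16 in APC_TRI (adjusted p = 0.020), and IPC and APC against CTL turned sign, to 0.08 and 0.09, without a call. None of the 5 member probe sets was called in IPC or APC against CTL by limma, where 3.89% and 3.66% of all probe sets were called. At an unadjusted p under 0.05 there were 1 and 0 of the 5, and 591 and 562 of all 5244 probe sets.

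Against their triggers both preconditioned groups were higher in Slc25a14. IPC exceeded IPC_TRI by 1.11 ± 0.35 (adjusted p = 0.0213), a call that was lost without IPC replicate 1 (0.94, adjusted p = 0.070), with the values as deposited (0.82, adjusted p = 0.077) and with the beta-actin covariate (0.91, adjusted p = 0.31). APC exceeded APC_TRI by 1.58 ± 0.35 (adjusted p = 0.00175), with no overlap of the groups. The interaction, the response to test ischaemia after a trigger minus that without one, was 2.68 ± 0.49 for IPC (adjusted p = 7.80e-04) and 3.15 ± 0.49 for APC (adjusted p = 3.53e-04). With the spike-in covariate the IPC interaction was 2.21 and was not called (adjusted p = 0.060). As the mean of both probe sets the interactions were 2.19 for IPC (adjusted p = 0.0019) and 2.03 for APC (adjusted p = 0.0059). These are the single calls among the 5 member probe sets in the interactions, where 13.6% and 8.22% of all probe sets were called. Both interactions use the same CTL and ISCH arrays. Because the responses ran in opposite directions, their mean over the 3 pairs was 0.38 ± 0.20 and was not called (95% interval −0.04 to 0.79, adjusted p = 0.163), although it was called as the mean of both probe sets (0.62, adjusted p = 0.0088), without ISCH replicate 1 (0.50, adjusted p = 0.031) and without ISCH replicate 1 and IPC_TRI replicate 5 together (0.48, adjusted p = 0.043).

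Set directly against unprotected ischaemia, Slc25a14 was not called in either preconditioned group. APC against ISCH was 1.31 ± 0.35 (95% interval 0.59 to 2.02, adjusted p = 0.0845), and it was called without ISCH replicate 4 (1.65, adjusted p = 0.020). IPC against ISCH was 0.88 ± 0.35 (95% interval 0.17 to 1.59, adjusted p = 0.322). None of the 5 member probe sets was called in these comparisons by limma, with 2 in APC and 1 in IPC at an unadjusted p under 0.05, where only 0.267% and 0.172% of all probe sets were called. None was called between IPC and APC or between the triggers, with 0 at an unadjusted p under 0.05 in both. Over all probe sets 0.0% were called between IPC and APC by limma, with 137 of 5244 at an unadjusted p under 0.05, and 0.439% between the triggers.

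The mean log2 signals of AB011068_at were 8.16 in CTL, 7.90 in APC, 7.47 in IPC, 6.59 in ISCH, 6.36 in IPC_TRI and 6.31 in APC_TRI. No step between neighbours in this order exceeded the larger SD of its pair. The SD was 1.02 in ISCH and 0.21 in CTL. Across the 6 groups 3 of 5 member probe sets were called by the F test of any difference, both of Ucp2 (adjusted p = 7.36e-05 and 0.00874) and AB011068_at (adjusted p = 9.33e-05), where 31.6% of all probe sets were called.

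The second Slc25a14 probe set, AB011068_g_at, ranked at the 21.0 percentile of mean signal and was left out by the filter, so it was read in a fit of all 8740 probe sets. Its signals were 14.4 to 45.5 in CTL, 17.4 to 104.9 in ISCH, 24.8 to 124.3 in IPC, 23.7 to 76.3 in APC, 9.4 to 23.9 in IPC_TRI and 8.3 to 28.3 in APC_TRI. IPC exceeded IPC_TRI by 1.69 ± 0.35 (adjusted p = 0.00127), and the mean over the 3 pairs rose with test ischaemia by 0.86 ± 0.20 (adjusted p = 0.00233), in a fit that called 15.3% and 18.3% of all probe sets. ISCH against CTL was −0.01 (95% interval −0.71 to 0.70, adjusted p = 0.997), which differs from the fall by AB011068_at. The trigger groups differed from CTL by −0.83 (adjusted p = 0.117) and −0.47 (adjusted p = 0.485), the direction seen by AB011068_at but not called. The interaction was 1.69 ± 0.49 for IPC (adjusted p = 0.0323) and 0.91 ± 0.49 for APC (adjusted p = 0.323). The probe sets correlated at r = 0.63 over the 30 arrays and at 0.58 with group means removed.

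Slc25a14 is best known from brain, so nerve and Schwann cell markers are given beside it. Only 2 of 8 on the array passed the filter, Th, the first enzyme of catecholamine synthesis, and Snap25, a protein of synaptic vesicle release. The summed signals of the 8 were 306 to 682 in CTL, 434 to 864 in ISCH, 320 to 516 in IPC, 358 to 710 in APC, 406 to 1630 in IPC_TRI and 740 to 864 in APC_TRI. Of the 2 tested, 0 were called in any of ISCH, IPC_TRI or APC_TRI against CTL. Over all genes 3.39%, 6.94% and 3.61% were called higher and 4.91%, 8.75% and 4.28% lower, in the same order. The part of nerve cells in the Slc25a14 result was not tested.

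Ucp3, the muscle member, was not called in any of the 14 contrasts or in the F test by either probe set. By AF035943_at, all IPC hearts lay above all CTL hearts, a separation whose share over all probe sets was not counted. The arrays within groups differed several-fold. The signals in CTL were 116.7, 32.8, 97.2, 118.6 and 118.3, in ISCH 176.2, 253.7, 42.1, 164.4 and 211.3, and in IPC 192.7, 380.0, 219.0, 273.1 and 132.1. In APC they were 215.0, 105.0, 152.5, 188.3 and 230.1, in IPC_TRI 88.2, 130.9, 322.4, 177.3 and 242.6, and in APC_TRI 234.3, 60.3, 52.0, 317.0 and 47.3. APC_TRI was split, with replicates 1 and 4 above the CTL range and the other arrays within it.

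IPC exceeded CTL by 1.19 ± 0.45 (95% interval 0.27 to 2.12, adjusted p = 0.203, limma, n = 5 per group). It was called when only the groups compared were fitted (adjusted p = 0.037) and with array weights (adjusted p = 0.038). APC against CTL was 0.85 ± 0.45 (95% interval −0.07 to 1.78). ISCH against CTL was 0.55, with a 95% interval of −0.37 to 1.48, which does not exclude a change of over 2-fold. IPC_TRI and APC_TRI against CTL were 0.63 (95% interval −0.29 to 1.56) and 0.13 (95% interval −0.79 to 1.06). Averaged over the 3 pairs, the difference with test ischaemia was 0.61 ± 0.26 (adjusted p = 0.0779), and it was called when APC_TRI replicate 1 or 4, IPC_TRI replicate 3 or ISCH replicate 3 was left out, with adjusted p from 0.027 to 0.043. Mean log2 signals ran from 7.97 in IPC through 7.63 in APC, 7.41 in IPC_TRI, 7.33 in ISCH and 6.91 in APC_TRI to 6.78 in CTL, and no step between neighbours exceeded the larger SD.

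**Figure D3:**
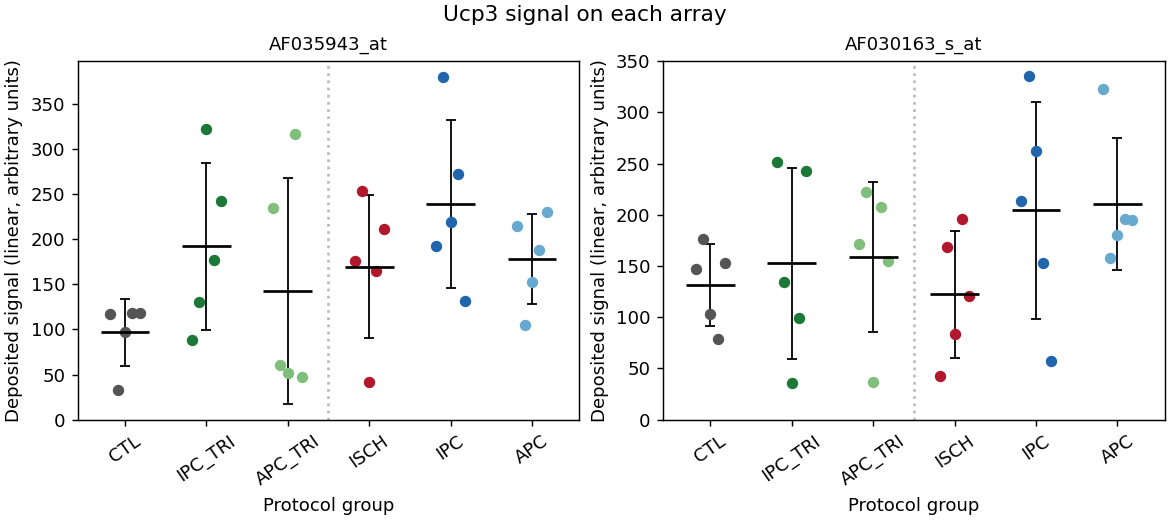
Deposited signal of the Ucp3 probe sets in each array, by group, laid out as for Ucp2, with points for arrays, black lines for means and bars for SD (n = 5). By AF035943_at the IPC arrays, at 132.1 to 380.0, lie above the CTL arrays, at 32.8 to 118.6; all other groups overlap CTL, and by AF030163_s_at every group does.

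The second Ucp3 probe set, AF030163_s_at, ran from 78.4 to 176.4 in CTL, 42.4 to 195.5 in ISCH, 57.1 to 335.3 in IPC and 157.6 to 322.9 in APC. In IPC_TRI it ran from 35.4 to 251.3 and in APC_TRI from 36.7 to 222.4. All 5 groups overlapped CTL. APC against ISCH was 0.93 ± 0.43 (95% interval 0.06 to 1.80, adjusted p = 0.374), IPC against CTL 0.46 ± 0.43 (95% interval −0.41 to 1.33) and the mean difference with test ischaemia 0.31 ± 0.25 (adjusted p = 0.365). The 2 probe sets correlated at only r = 0.24 over the 30 arrays and 0.15 with group means removed, and this one too has the _s_at ending.

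**Figure D4:**
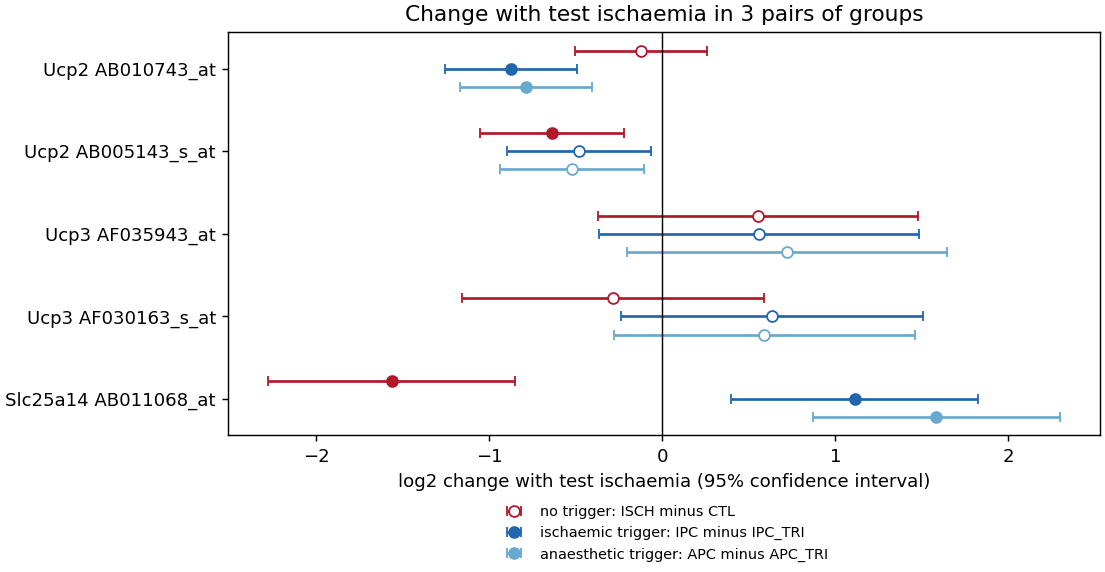
Response to test ischaemia of each member probe set that passed the filter, as log2 difference within each of the 3 pairs of groups (ISCH and CTL, IPC and IPC_TRI, APC and APC_TRI); bars are 95% intervals and filled points have an adjusted p under 0.05. Slc25a14 lies at −1.57 without preconditioning and at 1.11 and 1.58 with it, while Ucp2 by AB010743_at lies at −0.12, −0.88 and −0.79.

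Set side by side, the members did not move as a block. After the triggers Ucp2 by AB010743_at was higher and Slc25a14 lower, and after test ischaemia in preconditioned hearts each lay nearer to CTL than after the trigger. All 3 comparisons with CTL share the control arrays, so these values are not independent of each other. Among arrays of the same group, deviations of Ucp2 and Ucp3 correlated at r = −0.42 (permutation p = 0.069, adjusted over 3 pairs 0.21, n = 30 arrays) and rho = −0.28 (permutation p = 0.20, adjusted 0.60), with r = −0.41 without the 2 arrays farthest from the median. Ucp2 and Slc25a14 gave r = −0.16 (permutation p = 0.44, adjusted 0.66) and rho = −0.15 (permutation p = 0.46, adjusted 0.68), with r = −0.12 without the 2 farthest arrays. Ucp3 and Slc25a14 gave r = 0.03 (permutation p = 0.91, adjusted 0.91) and rho = 0.08 (permutation p = 0.71, adjusted 0.71), with r = 0.00 without the 2 farthest arrays. No pair passed the threshold.

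The rest of the uncoupling protein branch was sparsely represented. The Ucp1 probe sets A04674cds_s_at and X03894_at ranked at the 27.6 and 8.01 percentiles of mean signal and did not pass the filter. Slc25a30, also called KMCP1, a carrier of the same branch known from kidney, passed it with 1 probe set. It was 274.5 to 454.8 in CTL and 109.3 to 268.6 in IPC_TRI, with no overlap, and fell by 0.82 (SE 0.24, adjusted p = 0.0217). Of all probe sets, 9.48% did not overlap in that comparison. The IPC_TRI signals were 109.3, 259.8, 262.9, 268.6 and 215.4, with a log2 SD of 0.71 against 0.23 in CTL. Apart from a fit with no filter, Slc25a30 was not run through the alternatives. Its values were thus not checked without single arrays, or without IPC_TRI replicate 5 and ISCH replicate 1. IPC exceeded IPC_TRI by 1.03 ± 0.24 (adjusted p = 0.00295), with an interaction of 1.32 ± 0.35 (adjusted p = 0.0127), and the mean over the 3 pairs rose with test ischaemia by 0.39 ± 0.14 (adjusted p = 0.0399), a call that was lost with no filter (adjusted p = 0.057). Slc25a30 therefore shared the direction of Slc25a14 in the ischaemic arm, while in APC_TRI against CTL it was −0.17 ± 0.24 (adjusted p = 0.705).

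Other mitochondrial carriers of the Slc25 family had 8 genes tested. In IPC_TRI against CTL 2 fell, the adenine nucleotide translocators Slc25a4 (−0.66 ± 0.13) and Slc25a5 (−0.61 ± 0.15), and 1 rose, the peroxisomal carrier Slc25a17 (0.60 ± 0.16). In APC_TRI 1 fell, Slc25a5 (−0.52 ± 0.15), and with test ischaemia Slc25a5 rose by 0.58 ± 0.09 (adjusted p = 8.1e-06). Here and in the lists that follow, a change with test ischaemia is the mean over the 3 pairs of groups. That mean takes in any difference of the trigger groups from CTL. Slc25a5 was 0.07 ± 0.15 in ISCH against CTL. In ISCH against CTL 0 of 8 were called by limma. The medians of the list were −0.07 in ISCH, −0.35 in IPC_TRI and −0.05 in APC_TRI against CTL and 0.06 with test ischaemia, beside medians of −0.01, −0.02, 0.01 and 0.00 over all 3155 genes. Of those genes, 3.39% were called higher and 4.91% lower in ISCH against CTL, 6.94% and 8.75% in IPC_TRI against CTL, 3.61% and 4.28% in APC_TRI against CTL, and 14.1% and 13.6% with test ischaemia. Genes named for a single group's comparison, here and in the lists that follow, were picked after their values were seen.

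The PPAR receptors and their partners, transcription factors known to act on uncoupling protein genes, had 12 genes tested. With test ischaemia 2 rose, Rxrg, a retinoid X receptor (0.33 ± 0.10, adjusted p = 0.012), and Esrra, an oestrogen-related receptor that drives mitochondrial genes (0.60 ± 0.18, adjusted p = 0.015). In ISCH against CTL Rxrg was −0.14 ± 0.17 and Esrra −0.03 ± 0.32, neither called. Rxrg fell in IPC_TRI against CTL (−0.68 ± 0.17), and no other member was called in that comparison, in APC_TRI or in ISCH. Ppara itself was 0.02 ± 0.14 with test ischaemia (adjusted p = 0.951). The medians were −0.09 in ISCH, −0.27 in IPC_TRI and −0.05 in APC_TRI against CTL and 0.01 with test ischaemia.

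Of 23 Ppara target genes of muscle tested, 1 rose and 6 fell in IPC_TRI against CTL, and 1 rose and 5 fell in APC_TRI. Acadm, the medium-chain acyl-CoA dehydrogenase, fell by 1.36 ± 0.22 in the first and by 0.89 ± 0.22 in the second. Plin2, a lipid droplet protein, was the 1 that rose in IPC_TRI (0.92 ± 0.21), and Acsl1, which activates long-chain fatty acids, the 1 that rose in APC_TRI (0.58 ± 0.14). In ISCH 1 rose, the fatty acid binding protein Fabp4 (1.97 ± 0.34), and 4 fell, Acadm (−0.82 ± 0.22), Cpt1b (−0.42 ± 0.13), Cpt2 (−0.76 ± 0.19) and Hadhb (−0.50 ± 0.15). Fabp4 is also made by fat and capillary endothelium. The summed signals of 7 adipocyte markers were 4828 to 5684 in ISCH against 3452 to 4356 in CTL. Fabp4 is 1 of the 7, so this sum holds the Fabp4 rise itself. Of 4 adipocyte markers tested, Fabp4 was the 1 called higher in ISCH. The sums of 6 endothelial markers were 2514 to 3654 against 1566 to 2542, with 1 of 6 called higher. Over all genes 3.39% were called higher. The part of these cells in the Fabp4 result was not tested. With test ischaemia 3 rose and 3 fell: Fabp4 by 2.81 ± 0.20 and Cpt1a, the liver-type carnitine palmitoyltransferase, by 1.34 ± 0.15 were among the first, Acsl1 (−0.52 ± 0.08) and Cpt2 (−0.41 ± 0.11) among the second. Pdk4, a fasting-induced inhibitor of glucose oxidation that responds to Ppara, was −0.40 ± 0.20 (adjusted p = 0.132), and Cpt1b, the muscle carnitine palmitoyltransferase, −0.18 ± 0.07 (adjusted p = 0.0683). The medians were −0.26 in ISCH, −0.31 in IPC_TRI and −0.27 in APC_TRI against CTL and −0.01 with test ischaemia.

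Enzymes that remove superoxide and peroxides in and near mitochondria had 15 genes tested, of which 3 rose and 6 fell with test ischaemia. Prdx1, a peroxiredoxin (0.53 ± 0.09), and Cat, catalase (0.63 ± 0.14), rose, and Idh2, the mitochondrial isocitrate dehydrogenase that makes NADPH (−0.67 ± 0.09), and Txn2, the mitochondrial thioredoxin (−0.45 ± 0.10), fell. In ISCH against CTL Prdx1 was −0.01 ± 0.16, Cat −0.19 ± 0.24 and Txn2 −0.03 ± 0.17, none of them called. Cat was −0.67 ± 0.24 in IPC_TRI and −0.71 ± 0.24 in APC_TRI against CTL, not called in either. Sod2, the manganese superoxide dismutase of the matrix, was −0.30 ± 0.16 (adjusted p = 0.157). In APC_TRI against CTL 2 rose, Txn2 (0.56 ± 0.17) and Idh2 (0.57 ± 0.16), and 3 fell, Prdx1 (−0.83 ± 0.16), Nnt (−0.54 ± 0.14) and Prdx6 (−0.51 ± 0.16). In IPC_TRI 2 fell, Prdx1 (−0.77 ± 0.16) and Nnt, the proton-driven transhydrogenase of the inner membrane (−0.64 ± 0.14), and in ISCH 1, Idh2 (−0.50 ± 0.16). The medians were −0.19 in ISCH, −0.07 in IPC_TRI and −0.06 in APC_TRI against CTL and −0.18 with test ischaemia.

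Adenine translocators, porins and proteins of the permeability pore had 12 genes tested, some of them shared with the carrier list. In IPC_TRI against CTL 4 fell, Slc25a4, Slc25a5, the porin Vdac1 (−0.82 ± 0.28) and the mitochondrial creatine kinase Ckmt2 (−0.40 ± 0.10). In APC_TRI 2 fell, Slc25a5 and Ckmt2 (−0.44 ± 0.10), and in ISCH 2, Vdac1 (−0.94 ± 0.28) and Ckmt2 (−0.42 ± 0.10). With test ischaemia 2 rose, Slc25a5 and the survival protein Bcl2l1 (0.39 ± 0.11), and 1 fell, Ckmt1 (−0.42 ± 0.12). In ISCH against CTL Slc25a5 was 0.07 ± 0.15, Bcl2l1 −0.02 ± 0.19 and Ckmt1 −0.04 ± 0.22, none of them called. The medians were −0.21, −0.31, −0.12 and −0.01 in the same order of comparisons as above.

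The respiratory chain and ATP synthase, which build and use the proton gradient that uncoupling proteins can dissipate, had 30 genes tested. In IPC_TRI against CTL 3 rose and 6 fell, and in APC_TRI 3 rose and 5 fell. Uqcrc2, a core subunit of complex III, fell by 1.17 ± 0.18 and by 1.30 ± 0.18, and Ndufs1, a subunit of complex I, by 1.17 ± 0.22 and by 0.97 ± 0.22. In ISCH 0 rose and 3 fell, Ndufs1 (−0.83 ± 0.22), Sdha (−0.50 ± 0.14) and Uqcrfs1 (−0.35 ± 0.11). With test ischaemia 3 rose and 4 fell, among them Cox7b (0.63 ± 0.08) and Uqcrc2 (0.54 ± 0.10) upwards and the muscle-type Cox6a2 (−0.35 ± 0.06) and Cox8a (−0.57 ± 0.08) downwards. The medians were −0.14, −0.23, −0.18 and −0.01.

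Of 3152 other genes compared, those whose signal over the 30 arrays was most like Ucp2 by AB010743_at were Crip2, a LIM domain protein (r = 0.86), the G protein subunit Gnai2 (r = 0.80), the metalloproteinase inhibitor Timp1 (r = 0.77), the integrin Itga7 (r = 0.77) and the proteasome subunit Psmd11 (r = 0.76). With group means removed these were 0.55, 0.37, 0.39, 0.29 and 0.31. Most like Slc25a14 were Smad7, an inhibitor of TGF-beta signalling (r = 0.82), Ranbp3 (r = 0.80), the ATPase Vcp (r = 0.80), the 14-3-3 protein Ywhae (r = 0.78) and Oxr1 (r = 0.77). With group means removed these were 0.69, 0.57, 0.51, 0.52 and 0.51. Most like Ucp3 by AF035943_at were G0s2, an inhibitor of triglyceride breakdown (r = 0.66), the angiotensin receptor Agtr1a (r = 0.61), Epn1 (r = 0.57), Zranb2 (r = 0.57) and Pnrc2 (r = 0.54), with 0.67, 0.60, 0.60, 0.62 and 0.39 once group means were removed. These likenesses describe arrays that share groups and scaling, and were not tested.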

How the data were processed

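The deposited values are intensity values on a linear scale, 1 per probe set and array, scaled to a common trimmed mean by the authors before deposit, as the files show; the software is not given in the sources used here. RNA was handled by Affymetrix procedures, per the labels. Probe sets were named through the platform's annotation: 7006 carried 1 symbol, 308 several and 1426 none, with 59 control probe sets kept apart.

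Values were taken as log2(intensity + 16) and quantile normalized. Probe sets in the lowest 40% by mean were dropped, leaving 5244 for 3155 genes. A model with 1 mean per group was fitted over all 30 arrays with limma 3.58.1 in R 4.3.3, and 14 contrasts and an F test were read from it, with Benjamini-Hochberg adjustment. A gene's value in lists is its probe set with the highest mean. Tables and figures used Python 3.11.15, matplotlib 3.10.9, pandas 2.3.3, numpy 2.4.6 and scipy 1.17.1. The fit was tested on simulated data.

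The members and lists were chosen with earlier results of these data known. Member genes were named with every probe set, with the 5 genes most like each. List members past the threshold with test ischaemia were named, at most 4 by p, and Ppara, Pdk4, Cpt1b and Sod2 in any case. Marker genes were named, at most 3 by mean, where used. Correlations between members used 100000 permutations within groups. Alternatives were pseudocounts of 1 and 64, no filter or 60% left out, values as deposited, median centring, a replicate block, only the groups of a contrast, array weights, 2 arrays left out together, 2 quality covariates, the mean over probe sets, and each array left out. The 5 arrays per group limit precision.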

Additional observations from a re-analysis of the deposited data

Results flagged for a closer look

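Within-group spread was checked for each of the 6 member probe sets in each of the 6 groups, and in 4 of the 36 checks 1 array stood far from the rest of its group, where chance gives about 1 in 20. For Ucp2 by AB005143_s_at, APC replicate 5, at a signal of 4748.1, stood above the other APC arrays. For Ucp3 by AF035943_at, CTL replicate 2, at 32.8, stood below the other controls. For Ucp3 by AF030163_s_at, APC_TRI replicate 3, at 36.7, and for Slc25a14 by AB011068_g_at, APC_TRI replicate 1, at 8.3, stood below their groups.

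By AB011068_at the response of Slc25a14 to test ischaemia differed between hearts with and without preconditioning. The response in IPC minus that in unprotected hearts was 2.68 on the log2 scale (limma adjusted p = 7.80e-04), and the response in APC minus that in unprotected hearts was 3.15 (adjusted p = 3.53e-04). The IPC value was not called with the spike-in covariate (adjusted p = 0.060). By AB011068_g_at, which did not pass the filter, the values were 1.69 (adjusted p = 0.0323) and 0.91 (adjusted p = 0.323).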

How the results depend on the processing

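The alternatives were run for the members, and none of their called differences changed sign under any of them. Besides the calls lost that the report gives, the rise of Ucp2 by AB010743_at in APC_TRI against CTL was not called with no filter (0.60, adjusted p = 0.064), with median centring (0.62, 0.053) or with only the groups compared (0.60, 0.072), and its other lost values were 0.49 with the beta-actin covariate and 0.41 as the mean of both probe sets. The fall in IPC against IPC_TRI was −0.68 with the beta-actin covariate. The fall of AB005143_s_at in ISCH against CTL was not called with no filter (−0.64, 0.072), values as deposited (−0.65, 0.056), median centring (−0.74, 0.071), the replicate block (−0.64, 0.057), the spike-in covariate (−0.37, 0.57) or the beta-actin covariate (−0.59, 0.092). Its fall with test ischaemia was −0.46 with the beta-actin covariate, and its F statistic of any difference was 3.00 with median centring (0.070) and 2.17 with the beta-actin covariate (0.23). For Slc25a14 the fall in ISCH was −1.18 with the spike-in covariate and −0.79 as the mean of both probe sets, IPC against IPC_TRI was 0.82 with the values as deposited and 0.91 with the beta-actin covariate, and the IPC interaction was 2.21 with the spike-in covariate. The causes were not tested.

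With each array left out in turn, AB010743_at in APC_TRI against CTL ran from 0.48 to 0.79, AB005143_s_at in ISCH against CTL from −0.71 to −0.54 and Slc25a14 in IPC against IPC_TRI from 0.94 to 1.28. The labels number the replicates 1 to 5 in each group, but correlations of deviations were near 0 for same-numbered arrays (median r = 0.006 over 75 pairs, 9 of them over 0.1) and for others (median −0.001 over 300 pairs, 29 of them over 0.1), so the replicate block is given as an alternative only. Leaving out IPC_TRI replicate 5 and ISCH replicate 1 together ended no call among the member probe sets tested. By the mean over all arrays, both Ucp3 probe sets and AB011068_at lay near the middle of the array's range, and AB011068_g_at below it. In ISCH, IPC_TRI and APC_TRI, AB011068_at lay below the array median on every array but ISCH replicate 4. At such signals the spread between arrays limits what 5 per group can show.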
